A study of Mus musculus with 28 samples.

Results

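The cytosolic ribosomal proteins are the protein parts of the ribosome that translates nuclear-encoded mRNA. Their genes were taken here by symbol, as rows beginning with Rpl (large subunit) or Rps (small subunit) followed by a number and at most a short suffix. The rule found 81 of the 23420 gene symbols counted, 49 of the large and 32 of the small subunit, and 79 of them had enough counts to be tested. Rpl3l, with 10 counts over all 28 libraries, and Rpl10l, with 1, were not tested. The rule leaves out ribosomal proteins with other kinds of symbol, such as Rplp0 and Rpsa, which are described separately near the end.

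RNA was sequenced from T cells sorted out of male littermate mice aged 6 to 8 weeks. The mice carried either Foxp3-gfp, a reporter allele of the transcription factor that defines regulatory T (Treg) cells and called WT here, or Foxp3ΔCNS3-gfp, the same allele without conserved non-coding sequence 3, an enhancer within Foxp3, called KO as in the sample titles. Each genotype gave thymic mCD4SP cells (CD4 single-positive cells other than Treg cells), thymic Treg cells, and 2 splenic Treg populations titled rTreg and aTreg. The letters m, r and a are not expanded in the labels. There were 3 WT and 4 KO libraries per population, 28 in all. The design text speaks of 2 littermates, and nothing states which libraries are separate animals, so p-values measure the spread between libraries, which may be partly technical. Every mouse carried the GFP reporter, the WT groups included.

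A ribosome is built from 1 copy of nearly every one of these proteins, assembled on ribosomal RNA in the nucleolus. Their mRNAs typically begin with a C at the cap followed by a run of pyrimidines, the 5' terminal oligopyrimidine (TOP) tract, through which the kinase mTOR and the binding protein Larp1 control their translation and stability together. In T cells, ribosome production rises with growth and activation, and Rpl22 is known for its part in the development of alpha-beta T cells.

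The start windows of a few members are shown because the TOP tract is the feature these genes are best known to share. Each line gives 30 bases from RefSeq (build GRCm38.p6), 15 before the annotated start and 15 from it, read 5' to 3' on the gene's strand, with capitals marking an unbroken run of at least 5 C or T that opens with C at the annotated first base. Rps6, Rps18 and Rpl35 carry such a run, and Rps27 is set beside its paralogue Rps27l, where no run opens at either of its 2 annotated starts, the first of which is shown.
Rps6 (chr4:86857353-86857382, minus strand): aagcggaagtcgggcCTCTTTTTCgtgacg
Rps18 (chr17:33955651-33955680, minus strand): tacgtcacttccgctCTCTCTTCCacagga
Rpl35 (chr2:39005117-39005146, minus strand): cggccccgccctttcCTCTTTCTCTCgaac
Rps27 (chr3:90213634-90213663, minus strand): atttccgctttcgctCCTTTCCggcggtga
Rps27l (chr9:66946071-66946100, plus strand): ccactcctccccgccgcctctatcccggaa
Of the 81 members, 61 matched the RefSeq promoter table, and 12 of these (19.7%) had the run at an annotated start, against 3.01% of the 27025 genes in the table. A C followed by 4 pyrimidines anywhere from 10 bases before to 15 bases into the transcript was found in 62.3% of the members and 34.4% of all genes. The motif CCGGAAG, read on both strands over 250 bases before and 50 after the start, was found in 39.3% of the members and 9.93% of all genes, and AAGATGG in 16.4% and 7.28%. These counts describe letters at annotated starts, which can lie a few bases from the start a cell uses, and say nothing of a factor's presence.

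The libraries held 2.20e+07 to 4.08e+07 counts in genes, and the members took 558155 to 1477760 of them, or 2.23 to 3.88%. Foxp3 measured 446 to 671 CPM (counts scaled to a common library size) in the libraries of Treg cells and 1.07 to 3.49 CPM in those of mCD4SP cells. Its mean was 652 ± 16.3 in WT and 544 ± 73.6 CPM in KO thymic Treg (log2 fold change -0.26, adjusted p = 0.0561), and it was lower in KO mCD4SP by -1.25 (adjusted p = 8.25e-05). The other 3 Treg markers listed were higher in KO mCD4SP, Il2ra by 2.38, Ctla4 by 0.68 and Ikzf2 by 0.85 (adjusted p = 0.00738, 0.0213 and 0.0061). The 4 summed to 115 to 326 CPM (median 146) in KO against 78.0 to 104 (median 83.7) in WT mCD4SP. Myeloid and B cell markers in KO mCD4SP summed to 12.2 to 156 (median 16.2) and 4.82 to 27.2 CPM (median 6.45). For each of these sums the top KO library stood well above the median. Replicate 2 had the most genes detected in this group, 15649 against 14216 to 14719. What other cells contribute to these rises was not tested. The deleted part is non-coding, so the Foxp3 level does not check the deletion. T cell markers were present throughout (4 of the 5 listed were counted, 3722 to 6580 CPM in sum), and markers of other cells were low but present, the highest sum being 714 CPM for 8 myeloid genes in a KO thymic Treg library. In such bulk RNA, fewer cells of a type and less RNA per cell cannot be told apart.

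The files list multi-mapping reads on a line of their own, apart from the genes, and this bears on every member's level. Most ribosomal protein genes have processed pseudogenes, copies of the mRNA inserted elsewhere in the genome. Of the 81 members, 78 shared at least 1 stretch of 50 bases of transcript with another annotated gene, and a median of 49.4% of a member's 50-base stretches was shared. Levels per kilobase of exon, averaged over the 28 libraries, spanned 2147-fold among the 79 tested members, although ribosomes hold the proteins in near-equal numbers. Among the highest were Rpl32 (2329 CPM per kb), Rpl4 (1761), Rpl8 (1286) and Rpl41 (1041). The lowest tested were Rpl39l (1.09 CPM per kb), Rpl28 (1.49), Rpl34 (1.72), Rpl30 (1.72) and Rps12 (2.06). Spearman's correlation across the 79 genes between level per kilobase and shared share was -0.30, a description over genes that share libraries. The top 5 members held 38.0% of the members' CPM and the top 10 held 60.9%, so a summed level rests mainly on those. A gene's level is therefore compared below only with its own level in other libraries.

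**Figure D1:**
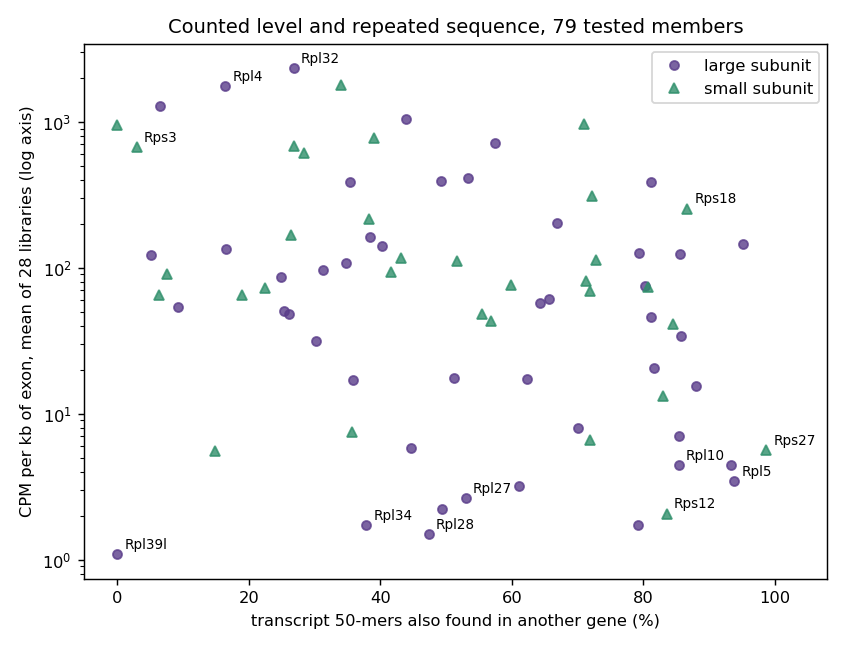
Mean level of each of the 79 tested members, in CPM per kilobase of exon on a log axis, against the percentage of its transcript's 50-base stretches that also occur in another annotated gene, with circles for large and triangles for small subunit genes. Rpl32 is highest at 2329 CPM per kb and Rpl39l lowest at 1.09. Of the 12 tested members with under 20% shared, only Rpl39l and Rps4y2 (5.58) lie below Rpl7l1 (53.9 CPM per kb).

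Large and small subunit genes moved together from library to library. The summed level of the 32 small subunit genes was 17233 ± 837 CPM in WT mCD4SP (SD, n = 3), 14343 ± 219 in WT thymic Treg, 17409 ± 933 in WT rTreg and 12093 ± 1848 in WT aTreg. For the 49 large subunit genes the same 4 means were 18319.9 ± 777, 15158 ± 276, 18562 ± 979 and 13018 ± 1987 CPM. The order was therefore the same for both subunits, with aTreg lowest, thymic Treg next, and rTreg and mCD4SP on top within 1 SD of each other. In the KO libraries (n = 4) the large subunit sums were 18592 ± 1325 in mCD4SP, 17158 ± 1421 in thymic Treg, 18684 ± 239 in rTreg and 13229.9 ± 984 CPM in aTreg. The small subunit sums in the same order were 17486 ± 1254, 16215 ± 1594, 17486 ± 257 and 12403 ± 923 CPM. The ratio of the large to the small subunit sum stayed between 1.04 and 1.09 in all 28 libraries, a coefficient of variation of 1.14%, while the sum over both subunits ran from 21392 to 39569 CPM, a coefficient of variation of 15.2%. The ranges of this ratio overlapped in every comparison between populations or genotypes described below.

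**Figure D2:**
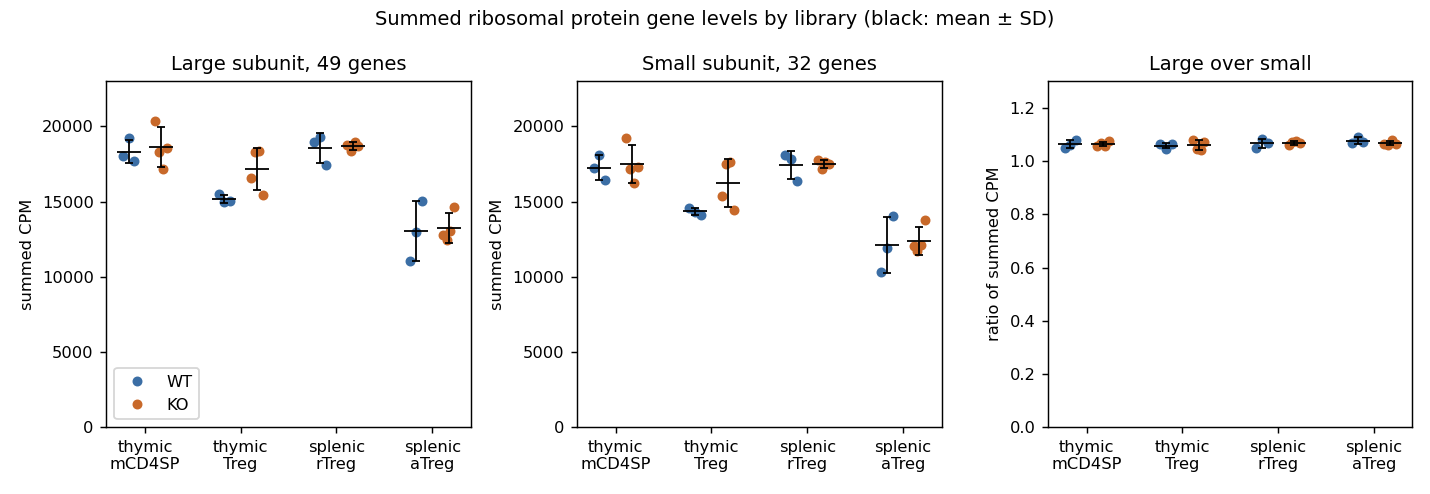
Summed CPM of the 49 large subunit genes, of the 32 small subunit genes, and the ratio of the 2 sums, by library in each population, with WT in blue and KO in orange and black bars for mean ± SD (n = 3 WT, 4 KO). The aTreg groups have the lowest means in both sums, WT aTreg replicate 3 lies among the WT thymic Treg libraries in the large subunit sum, and the ratio stays between 1.04 and 1.09 throughout.

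Splenic aTreg libraries had less of most ribosomal protein mRNAs than splenic rTreg libraries, in both genotypes and both subunits. In WT mice 55 of the 79 tested members were lower in aTreg and 2 higher, where 18.1% of all 13338 tested genes were lower and 19.9% higher (edgeR's quasi-likelihood test, Benjamini-Hochberg adjusted p under 0.05). In KO mice 62 were lower and 1 higher, where 19.9% of all genes were lower and 21.7% higher. The WT and KO comparisons use different libraries, and 51 members were lower in both, which is 92.7% of the WT list and 82.3% of the KO list. The log2 fold change had the same sign in both genotypes for 76 of the 79. Its median was -0.40 over the large and -0.49 over the small subunit genes in WT, and -0.46 and -0.48 in KO, against -0.01 and 0.01 over all tested genes. All WT aTreg libraries lay below all WT rTreg libraries for 50 members (22.3% of all genes did so) and above them for 3 (23.4%). In KO these numbers were 62 (20.7%) and 2 (22.3%).

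Rpl4, which lines the tunnel through which the new protein leaves the ribosome, measured 4128, 4507 and 3979 CPM in the WT rTreg libraries and 2425, 2783 and 2999 in the WT aTreg libraries. The groups did not overlap, and Rpl4 was lower in aTreg by a log2 fold change of -0.62 (SE 0.08, adjusted p = 2.97e-07). In KO libraries it measured 4362, 4149, 4497 and 4132 CPM in rTreg and 2572, 2539, 2926 and 3069 in aTreg, again with no overlap (log2 fold change -0.63, adjusted p = 1.73e-08). Rps3, at the mRNA entry of the small subunit and with only 2.96% of its 50-base stretches shared, measured 3536, 3534 and 3249 CPM in WT rTreg and 2099, 2401 and 2751 in WT aTreg (log2 fold change -0.51, SE 0.08, adjusted p = 1.76e-05). The same gene measured 3399.7 to 3543 CPM in the 4 KO rTreg libraries and 2342 to 2753 in the 4 KO aTreg libraries (log2 fold change -0.48, adjusted p = 4.41e-06). Both genes were thus lower in every aTreg library than in every rTreg library of the same genotype.

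The largest fall in WT aTreg was that of Rps19, a small subunit protein whose loss causes an inherited anaemia. It measured 721, 688 and 554 CPM in rTreg and 312, 386 and 455 in aTreg, a log2 fold change of -0.77 (SE 0.11, adjusted p = 2.45e-06). Rpl35, Rpl4 and Rps18 were also among the largest falls, each with a log2 fold change of -0.62. In KO libraries the largest falls were those of Rpl10a (-0.87), Rps13 (-0.84), Rps28 (-0.78), Rpl24 (-0.69) and Rpl35 (-0.67), each with separate groups. Rpl35, whose start window is shown above, measured 199.95, 205 and 191 CPM in WT rTreg and 109.8, 126 and 151 in WT aTreg, and 199 to 209 against 119 to 146 CPM in KO. It was among the 5 largest falls of both genotypes.

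Few members went the other way. Rps27l, a paralogue of Rps27 known as a target of p53, measured 40.4, 45.5, 42.6 and 45.6 CPM in KO rTreg and 54.6, 61.0, 50.2 and 60.2 in KO aTreg. The KO groups were separate, and Rps27l rose in aTreg with a log2 fold change of 0.38 (SE 0.13, adjusted p = 0.0224). In WT it measured 47.0, 56.2 and 45.8 CPM in rTreg and 45.6, 73.1 and 78.3 in aTreg, overlapping groups with a log2 fold change of 0.40 (SE 0.15, adjusted p = 0.0356). The call was lost in 4 of 6 fits that each left out 1 WT library (replicates 1 and 3 of rTreg, 2 and 3 of aTreg, adjusted p 0.107 to 0.232), and in 4 of 8 in KO (replicates 1 and 3 of rTreg, 2 and 4 of aTreg, 0.0502 to 0.0631). Rps29, a zinc-binding protein of the small subunit, was called higher in WT aTreg alone, from 4.05, 5.41 and 3.02 CPM in rTreg to 5.64, 6.70 and 6.68 in aTreg (log2 fold change 0.61, SE 0.21, adjusted p = 0.0213). Leaving out replicate 1 or 3 of rTreg, or 2 or 3 of aTreg, gave Rps29 an adjusted p of 0.0594 to 0.147. In KO its log2 fold change was 0.02 (SE 0.18, adjusted p = 0.946). The difference between the genotypes was called for 0 of 79 members by edgeR, as for 0% of all genes, and for 0 by DESeq2 and limma voom. At an unadjusted p under 0.05, 5 of 79 members passed, as did 617 of all 13338 tested genes.

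**Figure D3:**
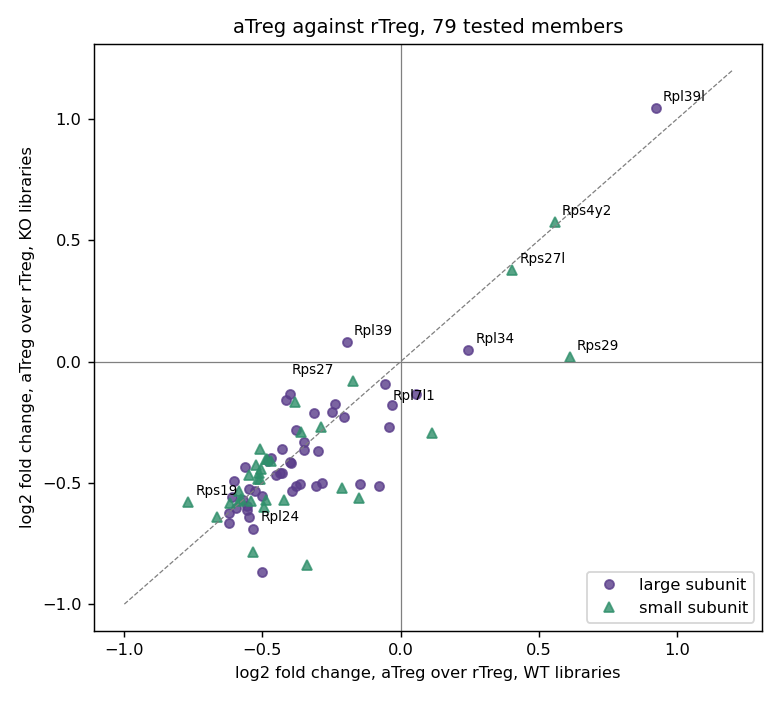
Log2 fold change of aTreg over rTreg for the 79 tested members, WT libraries on the horizontal and KO libraries on the vertical axis, with circles for large and triangles for small subunit genes and a dashed line where both are equal. Most members lie at the lower left, near -0.43 in WT and -0.46 in KO, and Rpl39l, Rps4y2, Rps27l and Rps29 lie apart from the rest.

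Other measures moved alongside this comparison. The 8 myeloid markers summed to 139 to 198 CPM in WT aTreg against 20.8 to 26.5 in WT rTreg, and to 56.5 to 87.2 against 12.1 to 27.3 CPM in KO. The 6 B cell markers summed to 96.2 to 119 against 65.0 to 78.8 CPM in WT. In KO they summed to 113 to 131 against 69.1 to 82.2 CPM. Of the myeloid markers 5 were called higher in each genotype, and of the B cell markers 0 in WT and 3 in KO, with 0 lower. Of the 4 T cell markers counted 3 were higher in each genotype, and of 5 dendritic cell markers 3 in WT and 1 in KO, with 0 lower. Of 4 Treg markers 2 were higher in each, and of 2 CD8 T cell markers 1 was lower in each. No myeloid or B cell marker was at 0 counts over any of these groups. The part of these markers in the result was not tested. Multi-mapping reads made up 22.8 to 26.9% of the total in WT aTreg and 24.99 to 27.5% in WT rTreg. With that share as a covariate, chosen after seeing the data, 51 members were lower in WT and 64 in KO. With the share outside genes as the covariate 58 and 61 were. Reads outside genes made up 45.6 to 47.7% in WT aTreg and 46.0 to 49.4% in WT rTreg. In KO they made up 45.0 to 46.7% in aTreg and 48.6 to 49.7% in rTreg. These KO ranges do not overlap, so share and population cannot be told apart in that KO fit. For fits other than the reported one, here and below, no share of all genes called is given. A changed count there is not read as particular to the members. Members at every degree of sequence sharing were among those lower, and what sharing contributes was not tested. Of the 12 tested members with under 20% of their 50-base stretches shared, 8 were lower in WT and 6 in KO, with medians of -0.45 and -0.32. Of the 32 with 60% or more shared, 23 and 28 were lower, with medians of -0.43 and -0.51.

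Splenic rTreg libraries had more of most members than thymic Treg libraries in WT mice, and the KO comparison was mixed. In WT, 45 of 79 members were higher in rTreg and 0 lower, where 13.9% of all genes were higher and 16.7% lower. At an unadjusted p under 0.05, 52 of 79 members passed in either direction, as did 5397 of all 13338 tested genes. DESeq2 and limma voom each called 46 members higher and 1 lower. In KO, 30 were higher and 6 lower, where 19.6% and 23.3% of all genes were. The lists of higher members shared 27 genes, 60% of the WT list and 90% of the KO list. The median log2 fold change was 0.30 over the members in WT and 0.13 in KO, against -0.01 and -0.02 over all tested genes. All WT rTreg libraries lay above all WT thymic Treg libraries for 55 members (21.3% of all genes) and below them for 3 (24.2%). In KO these numbers were 32 (17.5%) and 6 (20.5%). The comparison shares its rTreg libraries with that of aTreg above, and its thymic Treg libraries with those that follow.

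Markers of other cells also differed between rTreg and thymic Treg libraries. The 8 myeloid markers summed to 20.8 to 26.5 CPM in WT rTreg against 139 to 241 in WT thymic Treg (5 of 8 lower), and to 12.1 to 27.3 against 246 to 714 CPM in KO (6 lower). The 6 B cell markers summed to 65.0 to 78.8 against 31.6 to 34.5 CPM in WT (5 of 6 higher), and to 69.1 to 82.2 against 48.3 to 52.3 CPM in KO (4 higher). Their part in the members' difference was not tested.

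Rpl10, a late-joining protein of the large subunit, had the largest rise from thymic Treg to rTreg among the members called. It measured 5.21, 4.69 and 5.78 CPM in the WT thymic Treg libraries and 12.4, 12.3 and 14.97 in WT rTreg, a log2 fold change of 1.34 (SE 0.13, adjusted p = 6.69e-09). In KO it measured 4.55 to 5.08 CPM in thymic Treg and 13.5 to 15.9 in rTreg (log2 fold change 1.59, SE 0.11, adjusted p = 1.47e-11). Thymic mCD4SP libraries lay between, at 6.28 to 8.85 CPM over both genotypes, as did aTreg at 9.34 to 11.3. Of Rpl10's 50-base stretches 85.4% also occur in other genes, among them 14 pseudogenes, so a large part of its reads may go uncounted.

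Rps27 had nearly equal levels within each WT group, 3.48, 3.49 and 3.52 CPM in thymic Treg and 7.78, 7.80 and 7.87 in rTreg. Its log2 fold change was 1.16 in WT (SE 0.15, adjusted p = 7.86e-07) and 0.93 in KO (SE 0.13, adjusted p = 1.6e-06), and 98.6% of its 50-base stretches are shared. Rps13, a small subunit protein, measured 24.9, 24.0 and 25.9 CPM in WT thymic Treg and 35.3, 38.5 and 60.4 in WT rTreg, where replicate 3 stood well above the other libraries (log2 fold change 0.84, adjusted p = 0.000589). In KO, Rps13 measured 21.7 to 32.3 CPM in thymic Treg and 55.1 to 64.0 in rTreg (log2 fold change 1.05, adjusted p = 3.9e-06). Rps6, the substrate of the S6 kinases, measured 56.9, 54.2 and 55.0 CPM in WT thymic Treg and 75.9, 72.5 and 91.8 in WT rTreg, and rose by 0.53 (adjusted p = 0.000136) in WT and 0.47 (adjusted p = 7.41e-05) in KO. Rpl10a, part of the stalk beside the ribosome's exit site, rose by 0.52 in WT and 0.60 in KO. Rpl28, of the large subunit, was the fourth of the KO rises in size, with a log2 fold change of 0.75 (adjusted p = 0.00141) at 2.19 ± 0.18 CPM in KO thymic Treg and 3.70 ± 0.32 in KO rTreg (SD, n = 4).

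The 6 members that fell in KO rTreg were led by Rps27l, which went from 65.2, 79.1, 85.6 and 64.6 CPM in KO thymic Treg to 40.4, 45.5, 42.6 and 45.6 in KO rTreg (log2 fold change -0.76, SE 0.13, adjusted p = 4.21e-05). Its WT log2 fold change was -0.39 (SE 0.15, adjusted p = 0.0501). Rps26 (-0.44), Rpl34 (-0.41), Rpl37 (-0.38), Rps15a (-0.35) and Rpl7l1 (-0.26) made up the rest. Leaving out replicate 3 of KO thymic Treg, the library highest for Rps26 and Rpl34, took the calls of Rpl34 (adjusted p = 0.204), Rpl37 (0.0619) and Rps15a (0.0532), and further single libraries took those of Rpl34 and Rpl37. The rTreg to thymic Treg difference was called as unequal between genotypes for 0 of 79 members by edgeR, where 0.03% of all genes were called. DESeq2 and limma voom also called 0. At an unadjusted p under 0.05, 6 of 79 members passed, as did 1319 of all 13338 tested genes. Reads outside genes made up 42.3 to 45.0% in KO thymic Treg and 48.6 to 49.7% in KO rTreg. With this share as a covariate 19 members were called in KO, all higher, and with the multi-mapping share 60 were higher and 2 lower. The share of all genes called in these covariate fits is not given. Multi-mapping reads made up 26.6 to 30.1% in KO thymic Treg and 25.6 to 26.1% in KO rTreg. As neither share overlaps between these groups, share and population cannot be told apart.

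Thymic Treg libraries had less of many members than thymic mCD4SP libraries in WT mice, by small amounts. In WT, 43 of 79 members were lower and 1 higher, where 21.6% of all genes were lower and 26.8% higher, and the median log2 fold change was -0.26 over the large and -0.30 over the small subunit genes (0.03 over all tested genes). All WT Treg libraries lay below all WT mCD4SP libraries for 59 members (27.3% of all genes) and above them for 2 (31.4%). In KO, 21 were lower and 5 higher, where 26.5% and 30% of all genes were, so that the share lower was close to that of all genes. All KO Treg libraries lay below all KO mCD4SP libraries for 8 members (20.8% of all genes) and above them for 3 (24.7%). Of the 21 lower in KO, 20 were lower in WT, which is 46.5% of the WT list and 95.2% of the KO list.

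The largest WT falls were those of Rps29 (-0.53), Rps7 (-0.52), Rpl12 (-0.52), Rps21 (-0.50) and Rpl36al (-0.49). Rps21 measured 159.7 ± 15.2 CPM in WT mCD4SP and 113 ± 0.231 in WT thymic Treg (SD, n = 3, adjusted p = 0.000694). The Rps29 call was lost without replicate 1 or 2 of WT thymic Treg or replicate 2 of WT mCD4SP (adjusted p 0.0649 to 0.147). Among the largest KO falls were those of Rpl10 (-0.66), Rps25 (-0.42), Rps24 (-0.35) and Rpl21 (-0.32). Rpl10 fell from 7.56, 6.28, 8.85 and 7.47 CPM in KO mCD4SP to 4.56, 5.08, 4.55 and 4.95 in KO thymic Treg, with no overlap (adjusted p = 1.97e-05). The KO rises beside Rps4y2 were those of Rpl34 (0.45), Rps2 (0.26), Rpl7l1 (0.21), another large subunit paralogue, and Rpl7a (0.16). Those of Rpl34, Rps2 and Rpl7a were each lost without 1 or more single libraries, replicate 3 of KO thymic Treg among them, which gave adjusted p values of 0.119, 0.0991 and 0.140.

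The number of members lower in thymic Treg depended on what else entered the fit. Multi-mapping reads made up 28.5 to 30.2% in WT mCD4SP and 25.3 to 26.3% in WT thymic Treg, and reads outside genes 42.5 to 45.4% and 46.3 to 49.3%. With the first share as a covariate 3 members were lower and 5 higher in WT, and with the second 7 were lower and 1 higher. Neither share overlaps between the 2 WT populations, so share and population cannot be told apart in these fits. The count of members called in WT, 44, became 29 without replicate 2 of WT thymic Treg and 27 without replicate 2 of WT mCD4SP. In KO, 26 became 17 without replicate 4 of KO thymic Treg and 15 without replicate 1 of KO mCD4SP. No share of all genes called is given for these fits, so the changed counts are not read as particular to the members.

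Marker genes differed here as well. Myeloid markers summed to 139 to 241 CPM in WT thymic Treg against 13.7 to 25.6 in WT mCD4SP (5 of 8 higher), and to 246 to 714 against 12.2 to 156 CPM in KO (6 higher and 1 lower). B cell markers summed to 31.6 to 34.5 against 5.90 to 7.14 CPM in WT and to 48.3 to 52.3 against 4.82 to 27.2 CPM in KO (5 of 6 higher in each), with Pax5 at 0 counts in WT. Of 5 dendritic cell markers 3 were higher in WT and 2 in KO, at sums of at most 8.34 CPM. The 4 T cell markers counted summed to 4092 to 4202 CPM in WT thymic Treg against 5869 to 6435 in WT mCD4SP (3 lower), and to 3994 to 4570 against 5552 to 6580 CPM in KO (4 lower). What these shifts contribute was not tested.

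**Figure D4:**
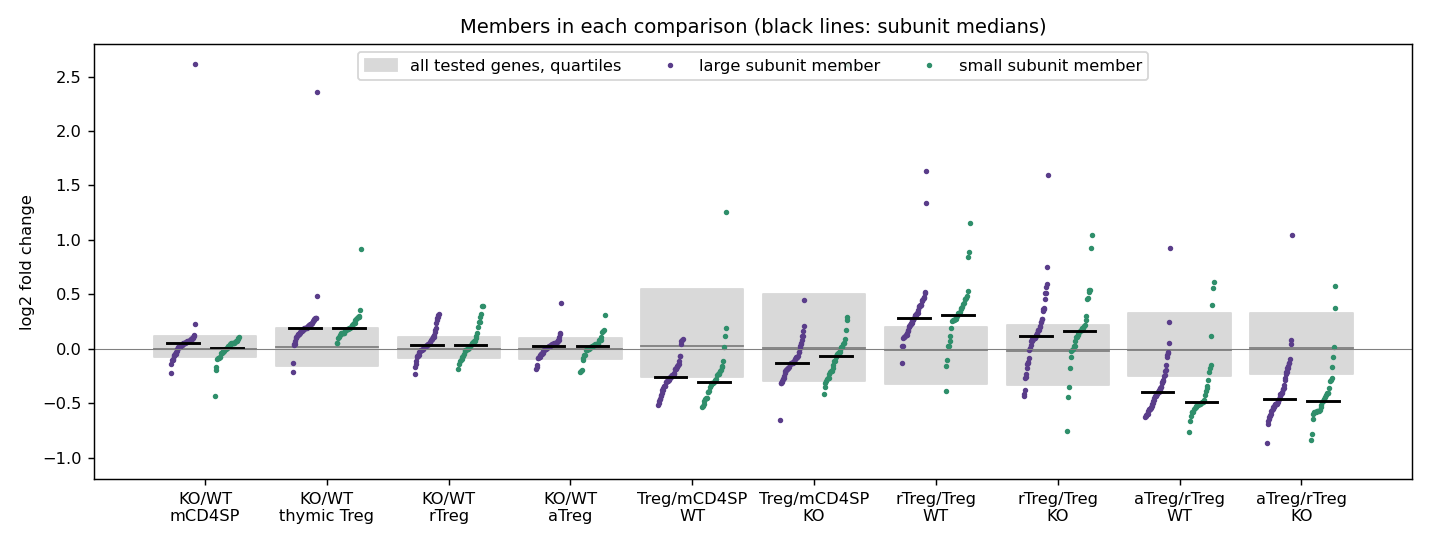
Log2 fold change of each of the 79 tested members in 10 comparisons, large subunit in purple and small subunit in green with black lines at their medians, over grey boxes from the first to the third quartile of all 13338 tested genes with a grey line at their median. Members of aTreg over rTreg lie mostly below 0 in both genotypes, those of rTreg over thymic Treg mostly above 0, and those of KO over WT near 0 except in thymic Treg.

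Few members differed between KO and WT in any population. In thymic Treg cells 2 members were higher in KO and 0 lower, where 4.21% of all genes were higher and 5.13% lower. These were Rps2, which measured 122, 133 and 129.5 CPM in WT and 141, 164, 189 and 138 in KO (log2 fold change 0.30, SE 0.10, adjusted p = 0.0459), and Rpl13, at 167, 166 and 165 CPM in WT and 181, 215, 230.1 and 180.3 in KO (log2 fold change 0.28, SE 0.09, adjusted p = 0.037). Both had separate groups. The median over the 79 members was 0.19 against 0.02 over all tested genes, and 2 of the 79 lay below 0. At an unadjusted p under 0.05, 27 of the 79 passed, as did 3544 of all 13338 tested genes. All KO libraries lay above all WT ones for 16 members (11.7% of all genes) and below them for 1 (10.4%). DESeq2 called 7 and limma voom 4. The summed level of all members was 13.1% higher in KO, but the libraries overlapped. KO replicates 2 and 3 stood at 35726 and 36026 CPM, KO replicate 1 at 31893, and KO replicate 4 at 29845, within the WT range of 29145 to 30046.

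The count in thymic Treg cells rested on single libraries. It was 0 without any 1 of the 3 WT libraries or without KO replicate 3, 1 without KO replicate 2, 3 without KO replicate 1, and 10 without KO replicate 4. The 3 KO libraries with the highest sums also had the smallest share of reads outside genes, 42.3 to 42.6% against 45.0% in KO replicate 4 and 46.3 to 49.3% in WT, and the largest multi-mapping share, 28.5 to 30.1% against 26.6% and 25.3 to 26.3%. With either share as a covariate 0 members were called, and the members' median was 0.01 with the first and -0.07 with the second. Neither share overlaps between the KO and WT libraries, so share and genotype cannot be told apart in these fits. Multi-mapping reads may also include reads of the members themselves. Myeloid markers summed to 246 to 714 CPM in KO and 139 to 241 CPM in WT thymic Treg, with Lyz2 at 348 and 135 CPM on average. B cell markers summed to 48.3 to 52.3 against 31.6 to 34.5 CPM. Of these genes, 2 of the 8 myeloid and 0 of the 6 B cell markers were called higher in KO, and 0 lower. Without KO replicates 1 and 2, which held the most myeloid counts (chosen after seeing the data), 0 members were called.

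In the other populations edgeR called 0 members between the genotypes. In mCD4SP cells 0.195% of all genes were called, 1 member had an unadjusted p under 0.05, and the members' median was 0.03. In rTreg cells these were 0.135%, 6 members and 0.03, and in aTreg cells 0.03%, 0 members and 0.02. Of all 13338 tested genes, 828 in mCD4SP, 822 in rTreg and 898 in aTreg cells had an unadjusted p under 0.05. DESeq2 and limma voom also called 0 members in these 3 comparisons. The smallest p among members were those of Rps23 (log2 fold change 0.32, adjusted p = 0.589), Rpl10a (0.31, 0.637) and Rpl38 (0.32, 0.637) in rTreg and of Rps2 (0.17, 0.798), Rps10 (0.16, 0.823) and Rps27a (-0.20, 0.853) in aTreg. In mCD4SP they were those of Rpl39l, described below, Rpl8 (-0.10, 0.952) and Rpl9 (0.13, 0.954). The summed level differed by 1.48% in mCD4SP, 0.552% in rTreg and 2.08% in aTreg, with overlapping libraries. The KO to WT difference was called as unequal between thymic Treg and mCD4SP cells for 0 of 79 members by edgeR, DESeq2 and limma voom. By edgeR 0.615% of all genes were called. At an unadjusted p under 0.05, 9 of 79 members passed, as did 1844 of all 13338 tested genes. Rps2 came nearest, with a difference of 0.37 (SE 0.13, adjusted p = 0.198).

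The largest fold changes belonged to a pair of members with low counts. Rps4y2, listed as Rps4l in the GENCODE M21 annotation, is a transcribed processed pseudogene of the Rps4 family on chromosome 6 (GRCm38, 148354656 to 148355598, plus strand). It measured 1.78, 1.79 and 0.215 CPM in WT mCD4SP and 0.409, 1.77, 0.665 and 0.821 in KO mCD4SP. In thymic Treg it measured 4.17, 2.66 and 2.09 CPM in WT and 6.20, 6.69, 5.55 and 4.11 in KO, above all mCD4SP libraries of its genotype. It was higher in thymic Treg by 1.26 in WT (SE 0.44, adjusted p = 0.0208) and 2.61 in KO (SE 0.40, adjusted p = 2.99e-06), and the difference between these, 1.35 (SE 0.60, adjusted p = 0.306), was not called. The WT call was lost without replicate 1 of WT thymic Treg or replicate 3 of WT mCD4SP (adjusted p = 0.129 and 0.126). In aTreg it measured 10.1, 7.03 and 7.28 CPM in WT and 7.61, 11.8, 11.5 and 9.27 in KO, with log2 fold changes over rTreg of 0.56 and 0.57 that were not called. Rps4x, the X-linked gene of the same family, fell in aTreg by 0.58 and 0.53 on that scale and had its highest mean in mCD4SP.

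Rpl39l, a paralogue of Rpl39 known for its expression in testis, measured 0.0371, 0.504 and 0 CPM in WT mCD4SP and 2.17, 0.541, 0.979 and 1.12 in KO mCD4SP, from 1, 20 and 0 counts against 53, 15, 28 and 41. Its log2 fold change of 2.62 (SE 0.80) had an adjusted p of 0.358, and of 0.036 without replicate 2 of WT mCD4SP. In thymic Treg it measured 0.0254, 0.433 and 0.176 CPM in WT and 2.08, 0.393, 0.638 and 1.07 in KO (log2 fold change 2.36, SE 0.79, adjusted p = 0.0579, and 0.0402 without replicate 2 of KO thymic Treg). None of its 50-base stretches occurs in another annotated gene.

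**Figure D5:**
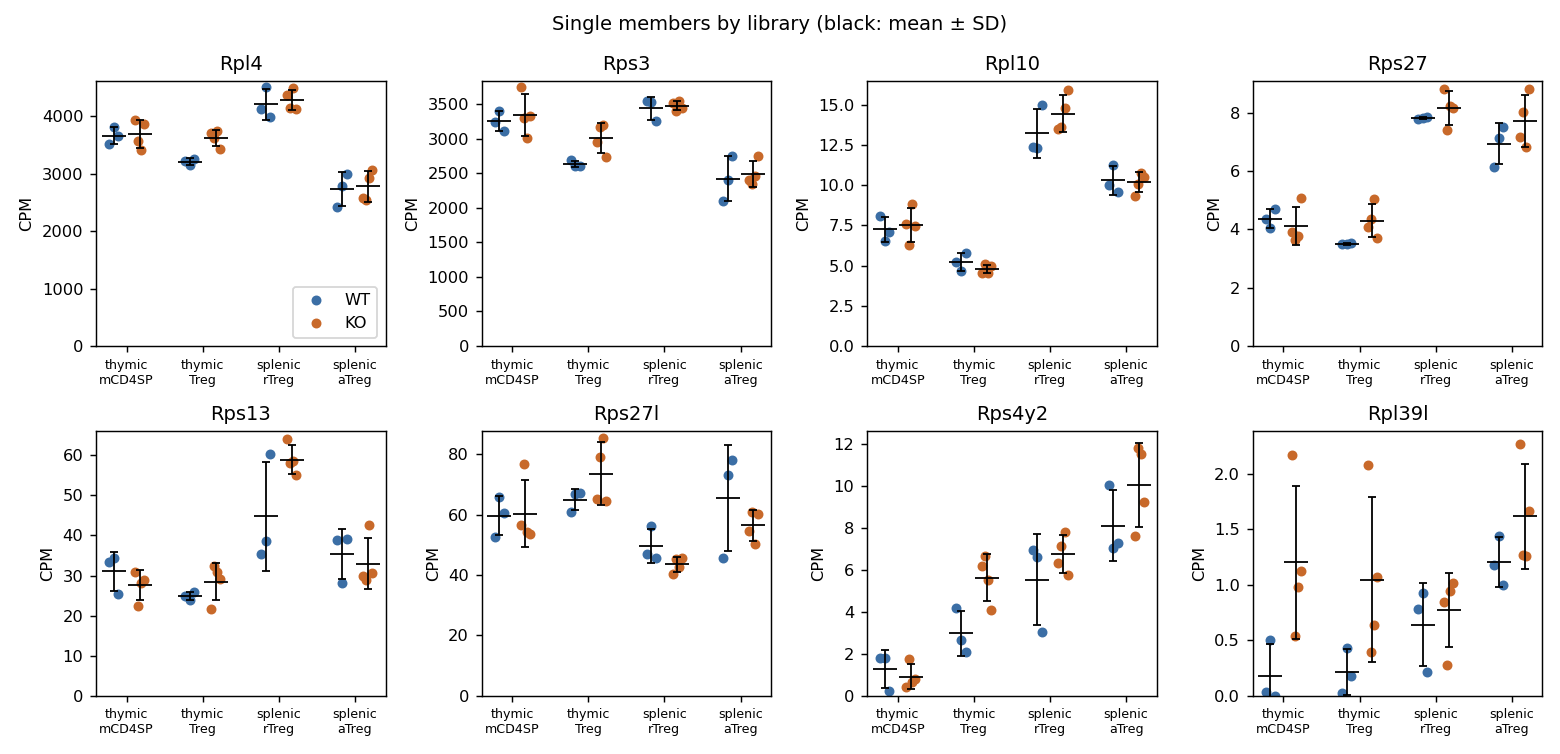
CPM of 8 members by library in each population, with WT in blue, KO in orange and black bars for mean ± SD (n = 3 WT, 4 KO). Rpl4 and Rps3 are lowest in aTreg, Rpl10, Rps27 and Rps13 are highest in rTreg, Rps27l is lowest in rTreg, and Rps4y2 is lowest in mCD4SP and highest in aTreg, by group means.

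Paralogues did not always follow each other. Rpl22 measured 375, 421 and 396 CPM in WT mCD4SP and 338, 335 and 335 in WT thymic Treg, and its paralogue Rpl22l1 measured 149.9, 148 and 139.9 against 105, 109 and 103. Both were lower in thymic Treg, Rpl22 by a log2 fold change of -0.24 (adjusted p = 0.0498, lost without any of 5 single libraries, 0.0961 to 0.186) and Rpl22l1 by -0.46 (adjusted p = 0.000428). Between rTreg and aTreg Rpl22 was lower in WT aTreg (-0.31, adjusted p = 0.0161, lost without replicate 1 or 2 of rTreg or replicate 1 of aTreg, 0.0602 to 0.162), and Rpl22l1 had a log2 fold change of -0.24 (adjusted p = 0.0691). Rps27 was lower in every aTreg library than in every rTreg library of WT, with a log2 fold change of -0.17 that was not called, while Rps27l was called higher. Rpl7 was lower in aTreg by -0.53 in both genotypes, and Rpl7l1, which is also known as a nucleolar protein, had log2 fold changes of -0.06 and -0.09 that were not called. Rpl36al had log2 fold changes of -0.03 in WT and -0.18 in KO and Rpl36a of -0.08 and -0.51, the last one called (adjusted p = 0.00553). Rpl39 was not called in any comparison, at 118 to 256 CPM over all libraries. Rpl3 fell in aTreg by 0.50 in WT and 0.55 in KO on the log2 scale (269.6 to 347 CPM in aTreg, 424 to 494 in rTreg over both genotypes).

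The other genes of the translation machinery that were listed beside the members moved partly with the members and partly against them. Of 7 cytosolic ribosomal proteins with symbols outside the rule, 5 were lower in WT aTreg than rTreg and 4 in KO, Rplp0 of the large subunit's stalk by -0.63 and -0.66. Of 16 translation factors and other mRNAs with a TOP tract, 8 were lower in WT aTreg and 12 in KO, among them the elongation factors Eef1a1 (-0.48 and -0.50) and Eef2 (-0.52 and -0.64), and 1 was higher in each, Nap1l1. Of 20 ribosome biogenesis genes 9 were lower in WT and 14 in KO and 0 higher, among them Nop56 of the nucleolar RNA-modifying complexes (-0.47 and -0.62) and the RNA polymerase I subunit Polr1b (-0.46 and -0.88). Of 12 mTOR pathway genes 4 were lower in each genotype, Larp1 by -0.66 and -0.68 and Rictor by -0.60 and -0.43, while Eif4ebp1, a translation repressor that mTOR inactivates, was higher by 0.83 and 0.99.

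In rTreg against thymic Treg, 8 of the 20 biogenesis genes were higher in WT and 8 in KO, with 0 lower. Of the 7 ribosomal proteins outside the rule 3 were higher in WT and 2 in KO, with 0 lower. Of the 16 factors with a TOP tract 5 were higher and 0 lower in WT, and 3 higher and 1 lower in KO. Tpt1 among them was higher by 0.58 and 0.51. Of the 12 mTOR pathway genes 1 was higher and 1 lower in WT, and 4 were higher and 1 lower in KO. In thymic Treg against mCD4SP, 6 of the 7 ribosomal proteins outside the rule were lower in WT and 1 in KO, with 0 higher in either. Of the 16 factors with a TOP tract 5 were lower and 2 higher in WT, and 1 was lower and 6 higher in KO. Of the 20 biogenesis genes 9 were lower and 1 higher in WT, and 5 lower and 3 higher in KO. Of the 12 mTOR pathway genes 3 were lower and 5 higher in WT, and 5 lower and 2 higher in KO. Eif3e was lower in both genotypes (-0.41 and -0.42), and the 2 factors higher in WT, the elongation factor Eef2 (0.26) and the initiation factor Eif4b (0.45), were also higher in KO (0.29 and 0.34). Between KO and WT thymic Treg, Rictor (-0.41, adjusted p = 0.00971) and the S6 kinase Rps6kb1 (-0.33, adjusted p = 0.00212) were lower in KO, and Eef1d was higher (0.20, adjusted p = 0.0436). The background shares for these lists are those given for each comparison above, and nothing is called particular to these lists.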

How the data were processed

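Sorted cells went into TRIzol, and SMART-amplified cDNA was sequenced as paired ends, per the labels. The deposited files hold the authors' raw read counts per gene symbol, not normalised. The submitters' processing notes name the tools Trimmomatic, HTSeq and STAR and the build mm10. For tool versions, annotation and strand handling the sources used here give nothing, so overlapping genes may share reads. Counter lines other than genes stayed outside the library sizes (reads outside genes 42.3 to 49.7%, multi-mapping reads 22.8 to 30.4%).

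CPM used library sizes scaled by TMM (factors 0.970 to 1.04). The quasi-likelihood test of edgeR 4.0.16 (R 4.3.3; limma 3.58.1 and DESeq2 1.42.0 as alternatives) was fitted to all 28 libraries with a mean per group, 20 residual degrees of freedom and the filterByExpr filter, and adjusted over 13338 genes. The biological coefficient of variation was 12.7%. The scripts were tested on simulated data. Within groups, chi-square per degree of freedom over 36 library pairs was 7.08 to 37.6, so no pair looked like 1 library deposited a second time.

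Every r between same-numbered libraries was above 0.1 for WT thymic Treg with mCD4SP (0.107 to 0.133) and KO aTreg with rTreg (0.121 to 0.232). That cut is arbitrary. For WT aTreg with rTreg r was 0.0584 to 0.212, against a mean of -0.0603 between libraries of other numbers. For KO rTreg with thymic Treg it was 0.0450 to 0.114, against -0.0233. Pairing in these comparisons is therefore not settled. Any pairing is inferred from the numbers in the titles and this check, and the reported fit used no block.

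The members and lists were chosen with earlier results of these data known. Genes were named by rule: the 5 largest rises and falls among members past the test, the 3 smallest p where fewer than 5 passed, 8 paralogue pairs, and the 5 highest and lowest levels per kilobase. Rps3, Rps6 and a few list genes were named after their values were seen. A few genes that the rule names are not reported here. Positions and 50-base sharing used GENCODE M21.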

Additional observations from a re-analysis of the deposited data

Results flagged for a closer look

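In groups of 4 libraries, 1 library stood far from the other 3 (Dixon's test at the 95% level) in 7 of 204 tests, and chance gives about 1 in 20. None was weighed. In KO thymic Treg, Rpl28 measured 1.92 CPM in replicate 3 against 2.25 to 2.30. In KO mCD4SP, Rps27l measured 76.8 CPM in replicate 2 against 53.6 to 56.5. In KO rTreg, replicate 2 was low for Rps18 (690.9 CPM against 725 to 732) and for Rps4x (567 CPM against 573 to 574), and replicate 3 for Rps29 (4.80 CPM against 5.60 to 5.74). In KO aTreg, Rps13 measured 42.5 CPM in replicate 3 against 28.8 to 30.7, and Rps29 measured 7.39 CPM in replicate 4 against 4.80 to 4.95.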

How the results depend on the processing

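Of 247 counts of called members under other settings, 221 stayed within 1.5 times the reported count. For KO against WT thymic Treg (2 called) the count was 1 with library totals, 1 with no low count filter, 4 with scaling without ribosomal protein rows, 7 with DESeq2, 4 with limma voom, 0 with only the groups compared, 0 with either read share as covariate and 0 without KO replicates 1 and 2 together. Leaving out 1 library gave 0 to 10 there and 0 to 1 in mCD4SP. For thymic Treg against mCD4SP in WT (44 called) it was 28 with library totals, 8 with the share outside genes and 8 with the multi-mapping share, and 27 to 42 without 1 library. In KO (26 called) it was 15 with only the groups compared and 15 to 30 without 1 library. For rTreg against thymic Treg in KO (36 called) it was 19 with the share outside genes and 62 with the multi-mapping share. The causes were not tested. For these other settings no share of all genes called is given, so a changed count is not read as particular to the members. Where the groups compared do not overlap in a read share, the share and the group cannot be told apart. The multi-mapping covariate and the removal of both KO libraries were chosen after seeing the data.

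Signs turned with a covariate for a few members. With the multi-mapping share, the log2 fold change of thymic Treg against mCD4SP in WT became 0.025 for Rps29 and 0.10 for Rpl22, and that of rTreg against thymic Treg in KO became 0.013 for Rpl34, 0.043 for Rpl37, 0.027 for Rps15a and 0.20 for Rpl22. With the share outside genes Rpl34 became 0.17 in the latter.

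Summed levels shifted by more than 1 SD in the groups with the smallest SD. The WT thymic Treg large subunit sum became 15692 CPM with library totals and 14756 without paralogues, and the small subunit sum 14848 with library totals and 14598 with scaling without ribosomal protein rows. In KO rTreg the same settings gave the large sum as 18311, 18266 and, scaled without ribosomal protein rows, 19251 CPM, and the small sum as 17138 and 18017. Without paralogues the ratio of large to small was 1.034 in WT and 1.036 in KO thymic Treg, 1.0395 in WT and 1.0396 in KO mCD4SP, 1.046 in WT and 1.048 in KO rTreg, and 1.051 in WT and 1.042 in KO aTreg.

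The reported counts come from the fit without a block. With the replicate number as a block, the counts were 43 for thymic Treg against mCD4SP in WT and 63 for aTreg against rTreg in KO. These are the 2 comparisons where every same-number r was above 0.1, with 44 and 63 members called without the block. For the others (same-number r -0.0965 to 0.212), the block gave 45 and 34 for rTreg against thymic Treg in WT and KO and 57 for aTreg against rTreg in WT. It gave 25 for thymic Treg against mCD4SP in KO, and 2, 0, 0 and 0 for KO against WT. Depth limits the low members: Rpl39l rests on 0 to 67 counts per library.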
